A study of Mus musculus with 8 samples.

Results

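Eosinophils are granulocytes of type 2 immune responses. They store a peroxidase, major basic protein and ribonucleases in their granules, depend on interleukin 5 for growth and survival, and enter tissue along eotaxin gradients through the receptor CCR3. In mice, interleukin 33 makes group 2 innate lymphoid cells release interleukin 5 and interleukin 13, and eosinophils are known to enter injured muscle, where they release interleukin 4 onto mesenchymal progenitors. The Ear genes encode eosinophil-associated ribonucleases of the pancreatic ribonuclease superfamily, a mouse family that has grown by repeated duplication. Some of them are also made by macrophages.

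The genes examined were 8 eosinophil genes (Epx, Prg2, Prg3, Siglecf, Ccr3, Il5ra, Alox15 and Ear6) together with every gene whose symbol is Ear followed by a number. That rule added 1 gene, Ear14, so that 9 of the 19752 genes with a value were described. Each had 1 probe set, and no probe set in the table listed several Ear symbols. By older symbols a pair of further genes belong to the family, Rnase2a (formerly Ear11) and Rnase2b (formerly Ear5). They lay outside the rule and are set beside the Ear genes, having been listed with the other pancreatic ribonucleases. The rule was applied to the symbols given for the probe sets, and it therefore covers the Ear family only in part. The expression of Ear1, Ear2 and Ear10 was not analysed here.

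Whole tibialis anterior muscle had been taken at day 8 after cryoinjury from male C57BL/6 mice, 99 weeks old by the labels and 22 months old by the design text. The injury was made with a metal probe chilled in liquid nitrogen and held on the muscle for 8 s. One group received recombinant interleukin 33 (rIL-33, 2 µg per intraperitoneal injection, on the day before and the day after injury; 4 arrays) and the other is labelled PBS (4 arrays). All mice were aged and injured, and each group is split by its genetic background label, with C57BL/6 given for replicates 1 and 2 but WT for replicates 3 and 4, a difference that the sources used here do not explain.

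Muscle identity was clear in the values: the 8 muscle fibre genes fixed as markers, among them Acta1, Ckm and Myh4, all lay at or above the 98.97 percentile of mean level, with 7 of 8 higher with rIL-33 and 0 past the threshold (Mylpf by 0.20 and Myh4 by 0.10 on the log2 scale). The eosinophil genes lay low. Of the 9, 3 lay above the 25th percentile of mean level, as 75% of all genes do by construction, and 6 had a mean under the 25th percentile of all genes (log2 intensity 6.65, intensity 100.4), namely Epx, Prg2, Prg3, Il5ra, Ear6 and Ear14. All 9 were tested, with no filter on dim probe sets. In whole muscle, fewer cells of a type and less RNA per cell cannot be told apart.

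The windows around the annotated starts of the ribonuclease genes are shown because they make visible how alike these duplicated genes are. Each window runs from 250 bases before to 50 bases after the start (RefSeq, GRCm38.p6), 5′ to 3′ on the gene's strand, and all 3 genes lie on chromosome 14. Capitals mark the longest run of bases identical in all 3 windows, 29 bases long.
Rnase2a, chr14:51256063-51256362, minus strand: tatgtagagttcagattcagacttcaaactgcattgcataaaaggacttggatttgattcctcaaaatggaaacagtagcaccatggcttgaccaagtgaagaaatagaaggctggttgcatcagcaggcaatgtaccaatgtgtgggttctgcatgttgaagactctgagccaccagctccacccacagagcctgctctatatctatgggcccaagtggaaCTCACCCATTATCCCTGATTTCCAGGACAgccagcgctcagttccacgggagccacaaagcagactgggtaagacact
Ear6, chr14:51853518-51853817, plus strand: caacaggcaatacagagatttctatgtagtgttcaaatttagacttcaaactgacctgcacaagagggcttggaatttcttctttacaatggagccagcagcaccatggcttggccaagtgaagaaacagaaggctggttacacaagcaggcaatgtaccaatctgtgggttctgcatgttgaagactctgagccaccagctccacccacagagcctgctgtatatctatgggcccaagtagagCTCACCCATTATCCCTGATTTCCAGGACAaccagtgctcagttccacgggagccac
Rnase2b, chr14:51162010-51162309, plus strand: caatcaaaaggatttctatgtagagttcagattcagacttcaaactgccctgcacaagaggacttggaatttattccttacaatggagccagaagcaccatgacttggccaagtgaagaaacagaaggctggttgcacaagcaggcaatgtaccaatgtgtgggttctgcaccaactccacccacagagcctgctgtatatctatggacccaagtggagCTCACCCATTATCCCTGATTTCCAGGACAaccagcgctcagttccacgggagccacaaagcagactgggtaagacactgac

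The Rnase2a window was identical to that of Ear6 at 89.6% of 278 aligned positions and to that of Rnase2b at 86.7% of 300. The 29-base run was taken from the windows of Rnase2a, Ear6 and Rnase2b, which therefore hold it by construction. Of 32851 start windows 4 held it, those of these genes and that of Ear14. Most of each window lies before the transcript, and whether the probe set of one of these genes also took up transcripts of another was not tested.

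The 9 eosinophil and Ear genes did not rise or fall together with rIL-33. By limma with Benjamini-Hochberg adjustment over all genes, 0 of 9 passed an adjusted p of 0.05, where 0.00506% of all genes were higher past it (1 gene, Retnla) and 0% lower. At an unadjusted limma p under 0.05, 2 of 9 were higher, Ccr3 and Alox15, against 3.4% of all genes, and 0 of 9 were lower, against 4.34%. In the same 2 genes the lowest rIL-33 array exceeded the highest PBS array, which was so for 1.96% of all genes, and in none of the 9 did the groups separate the other way (1.93% of all genes). The mean was higher with rIL-33 in 6 of 9, against 45.7% of all genes. Among arrays labelled C57BL/6 it was higher in 9 of 9, and among those labelled WT in 5 of 9 (2 arrays against 2 each). The share of all genes within each label was not computed. The median log2 difference over the 9 genes was 0.11, beside -0.01 over all genes. The 95% interval of the log2 difference included 0 for the other 7.

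**Figure D1:**
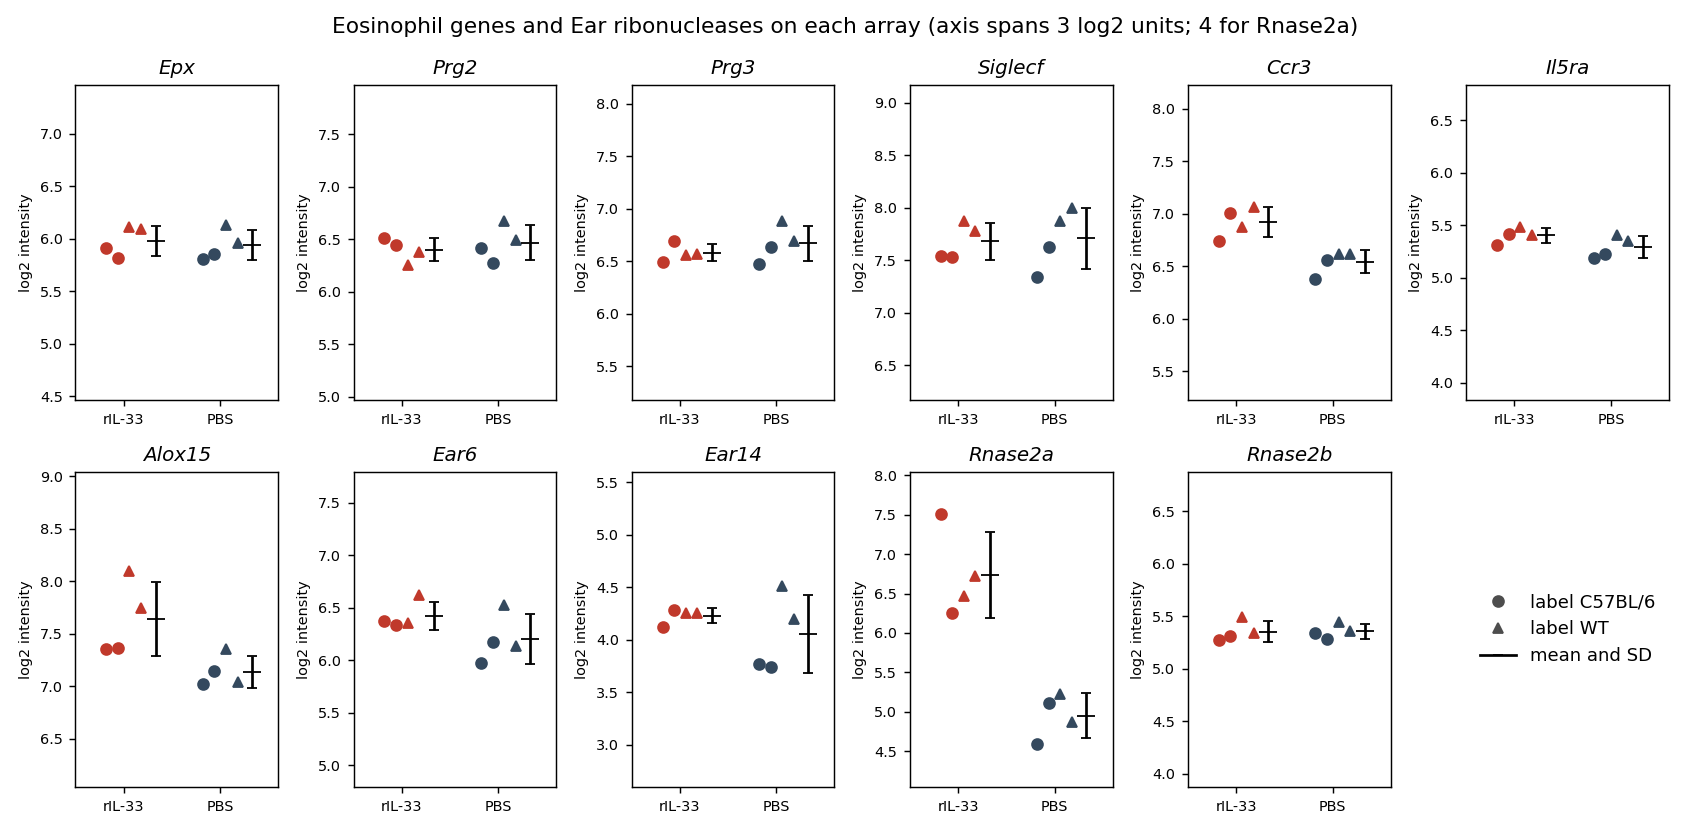
Log2 intensity (vertical axis) of the 9 eosinophil and Ear genes and of Rnase2a and Rnase2b on each of the 8 arrays, rIL-33 left of PBS, with circles for the label C57BL/6, triangles for the label WT and bars for the mean and SD of 4 arrays. The groups are apart for Ccr3, Alox15 and Rnase2a and overlap for the other 8 genes.

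The granule protein genes showed no separation of the groups. Epx encodes eosinophil peroxidase, which makes hypohalous acids, and had intensities of 60.3, 56.4, 69.0 and 68.4 on rIL-33 arrays 1 to 4, against 56.2, 58.0, 70.1 and 62.1 on PBS arrays 1 to 4. The lowest and the highest array of the 8 were both PBS arrays, and the log2 difference was 0.04 (95% interval -0.17 to 0.26, limma adjusted p = 0.967). All 8 arrays lay under the 25th percentile of all genes, so the interval describes the probe set's intensity and sets no limit on the transcript.

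Prg2 encodes major basic protein, the cationic core protein of the granule. Its intensities were 91.3, 87.3, 76.5 and 83.2 with rIL-33, against 85.4, 77.5, 102 and 89.8 with PBS, and the groups overlapped throughout (log2 difference -0.07, 95% interval -0.28 to 0.15, limma adjusted p = 0.943). Prg3, its homologue, stood at 90.1, 103, 94.4 and 95.002 with rIL-33, against 89.1, 99.6, 118 and 103 with PBS. PBS array 3 was the highest for both genes. The log2 difference of Prg3 was -0.09 (95% interval -0.30 to 0.11, limma adjusted p = 0.881).

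Of the 3 surface receptor genes, Ccr3 separated the groups without passing the threshold, and in the other two the groups overlapped. Ccr3, the receptor of the eotaxins, had intensities of 107, 129, 117 and 134 with rIL-33, against 83.6, 94.4, 98.5 and 97.99 with PBS. Every rIL-33 array lay above every PBS array. Its level was 6.92 ± 0.14 with rIL-33 and 6.55 ± 0.11 with PBS (log2 intensity, SD, n = 4 each), a difference of 0.38 (SE 0.09) or 1.30-fold (95% interval 1.13 to 1.499), with a limma adjusted p of 0.609. The difference was 0.40 among arrays labelled C57BL/6 and 0.35 among those labelled WT, and between 0.32 and 0.44 in each of the alternatives tried that left the gene in. The PBS mean lay under the 25th percentile of all genes and the rIL-33 mean above it, so a filter there keeps the gene through the rIL-33 arrays.

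Siglecf encodes a sialic acid-binding lectin of mouse eosinophils and alveolar macrophages. It stood at 186, 185, 235 and 220 with rIL-33, against 162, 198, 234 and 256 with PBS. In both groups the WT-labelled arrays exceeded the C57BL/6-labelled ones, and the treatment groups overlapped (log2 difference -0.03, 95% interval -0.34 to 0.29, limma adjusted p = 0.986). The Il5ra gene, for the alpha chain of the interleukin 5 receptor, had 39.8, 42.7, 44.8 and 42.3 with rIL-33, against 36.4, 37.4, 42.5 and 40.8 with PBS. PBS array 3 exceeded rIL-33 arrays 1 and 4, and PBS array 4 exceeded rIL-33 array 1. Here the log2 difference was 0.11 (95% interval -0.06 to 0.29, limma adjusted p = 0.780).

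Alox15 encodes 12/15-lipoxygenase, which oxidises arachidonic acid and is found in eosinophils and in some macrophages. Its intensities were 164, 165, 274 and 215 with rIL-33, against 130, 142, 163 and 132 with PBS. The groups did not overlap, though rIL-33 array 1 exceeded PBS array 3 by a narrow margin, 164.1 against 163.1. The level was 7.64 ± 0.35 with rIL-33 and 7.14 ± 0.15 with PBS (log2 intensity, SD, n = 4 each), a difference of 0.50 (SE 0.16) or 1.42-fold (95% interval 1.11 to 1.80), with a limma adjusted p of 0.610. It was 0.28 among arrays labelled C57BL/6 and 0.73 among those labelled WT, and the treatment by label term had an unadjusted limma p of 0.0531.

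The start window of Ccr3 is shown because the gene was among the few that separated the groups, with its GATA site in capitals. GATA1 is the transcription factor that commits precursors to the eosinophil lineage.
Ccr3, chr9:124021721-124022020, plus strand: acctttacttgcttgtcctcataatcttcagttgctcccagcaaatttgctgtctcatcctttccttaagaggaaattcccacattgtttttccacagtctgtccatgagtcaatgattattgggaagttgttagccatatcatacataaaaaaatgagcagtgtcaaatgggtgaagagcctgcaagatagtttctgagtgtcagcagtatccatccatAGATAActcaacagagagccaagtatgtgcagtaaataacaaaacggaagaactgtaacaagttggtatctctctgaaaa

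The site begins 30 bases before the annotated start. RefSeq start windows were at hand for 7 of the 9 genes (not for Prg2 and Alox15). A GATA site, searched as AGATAA or TGATAA on both strands, occurred in 5 of these 7 (Ccr3, Ear14, Il5ra, Prg3 and Siglecf), and in 18.6% of 32851 windows of 300 bases. The STAT6 motif, TTC and GAA with any 4 bases between them, searched on both strands, occurred in Epx and Il5ra, and in 6.95% of the windows. Neither motif was in the windows of Ear6, Rnase2a or Rnase2b. These matches describe letters only.

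Among the ribonuclease genes, Rnase2a stood far apart from Ear6, Ear14 and Rnase2b. Its intensities were 182, 76.4, 88.5 and 105 with rIL-33, against 24.1, 34.7, 37.5 and 29.2 with PBS, so that the lowest rIL-33 array was above the highest PBS array. Its level was 6.74 ± 0.55 with rIL-33 and 4.95 ± 0.28 with PBS (log2 intensity, SD, n = 4 each), a difference of 1.79 (SE 0.24, 95% interval 1.26 to 2.32), which is 3.45-fold in intensity. Whether the PBS signal lay above background was not tested, so this is a ratio of intensities and not of transcript amounts. The limma adjusted p of 0.147 missed the threshold, but its unadjusted p was the second smallest of the 19752 genes, behind Retnla, and its difference ranked 5 among the increases.

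Rnase2a was higher by 2.03 among arrays labelled C57BL/6 and by 1.55 among those labelled WT. Replicate 1 of the rIL-33 group was its highest array, and without it the difference was smaller, 1.53, yet past the threshold (limma adjusted p = 0.0335, beside a range of 0.0177 to 0.607 over all alternatives that kept the gene). Its mean over all arrays, 5.84, was under the 25th percentile, as were all 4 PBS arrays and rIL-33 arrays 2 and 3.

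Ear6 had intensities of 83.0, 80.8, 81.8 and 98.6 with rIL-33, against 62.7, 72.2, 92.3 and 70.3 with PBS. PBS array 3 lay above 3 of the 4 rIL-33 arrays, and the other PBS arrays lay below all of them. The log2 difference was 0.22 (95% interval -0.04 to 0.49, limma adjusted p = 0.691), with 0.28 among arrays labelled C57BL/6 and 0.16 among those labelled WT. Without PBS replicate 3, the array that made them overlap, the groups did not overlap, and the difference was 0.33. In that setting 3% of all genes were higher without overlap.

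Ear14 was the dimmest of the genes relative to the rest of the array, at the 2.03 percentile of mean level. It stood at 17.5, 19.5, 19.0 and 19.1 with rIL-33, against 13.6, 13.4, 22.8 and 18.4 with PBS. The rIL-33 arrays were close together and lay between the C57BL/6-labelled PBS arrays below and PBS array 3 above. The log2 difference of 0.17 (95% interval -0.17 to 0.51, limma adjusted p = 0.852) combined 0.45 among arrays labelled C57BL/6 with -0.11 among those labelled WT.

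Rnase2b, whose start window was identical to that of Rnase2a at 86.7% of 300 aligned positions, showed no difference like that of Rnase2a. Its intensities were 38.6, 39.6, 45.1 and 40.5 with rIL-33, against 40.4, 38.9, 43.6 and 41.1 with PBS. Both groups covered nearly the same range, and the log2 difference was -0.00 (95% interval -0.18 to 0.17, limma adjusted p = 0.999). The plot of intensities on a linear scale shows Rnase2a beside Ccr3 and Alox15.

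**Figure D2:**
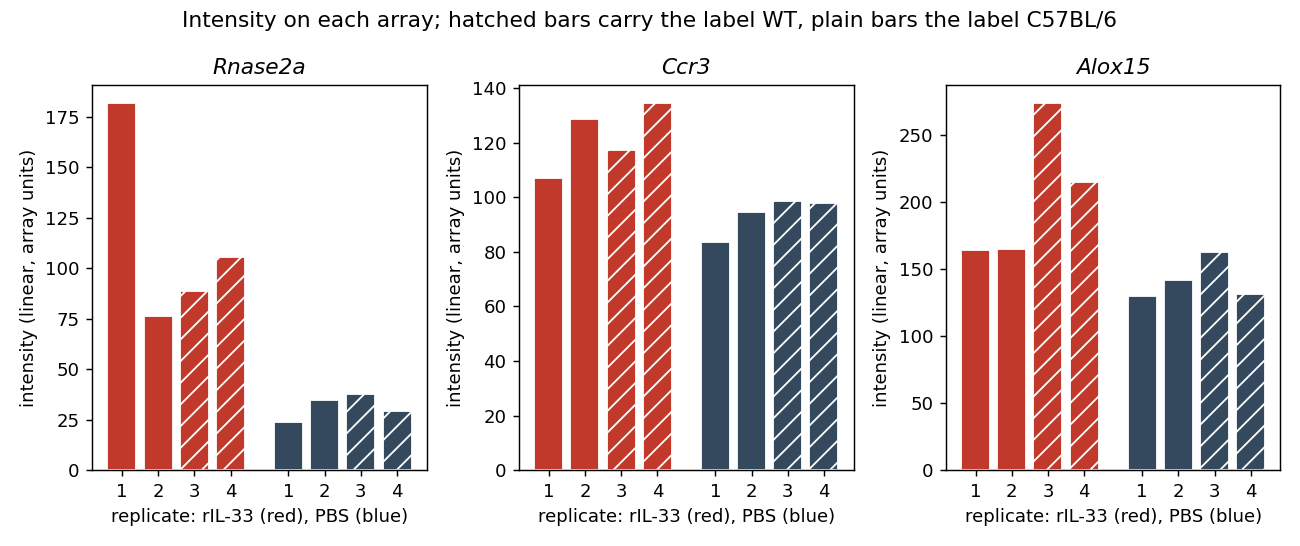
Intensity (linear array units, vertical axis from 0) of Rnase2a, Ccr3 and Alox15 on rIL-33 arrays 1 to 4 (red) and PBS arrays 1 to 4 (blue), with hatched bars for the label WT. Rnase2a runs from 76.4 to 182 with rIL-33 and from 24.1 to 37.5 with PBS, and rIL-33 array 1 is its highest bar, whereas Alox15 is highest on rIL-33 array 3.

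The values were also set against the genetic background label, without a test. All 9 genes had a higher mean on the WT-labelled than on the C57BL/6-labelled arrays, by 0.04 (Prg2) to 0.37 (Siglecf) on the log2 scale, where 55.7% of all genes and 85.1% of the genes under the 25th percentile had. Of the 9, 6 lay under that percentile. The largest label differences were those of Siglecf (0.37) and Alox15 (0.34), which lay above it, and Ear14 (0.33), which lay under it. Ccr3, also above it, differed by 0.12. What lies behind the count was not tested. Rnase2a differed by -0.05 between the labels. The highest PBS array was replicate 3 for 8 of the 9 genes (all but Siglecf), as for 36.0% of all genes and 69.0% of those under the 25th percentile. That array also had the highest lower quartile of intensity, 107 (the other arrays between 88.3 and 100.2). With the label as a block in the fit, 0 of 9 genes passed the threshold, and the limma adjusted p was 0.294 for both Ccr3 and Alox15. In 5 of the 9 genes (Ccr3, Alox15, Ear6, Il5ra and Epx) the treatment difference was above 0 within both labels, as in 26.4% of all genes.

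**Figure D3:**
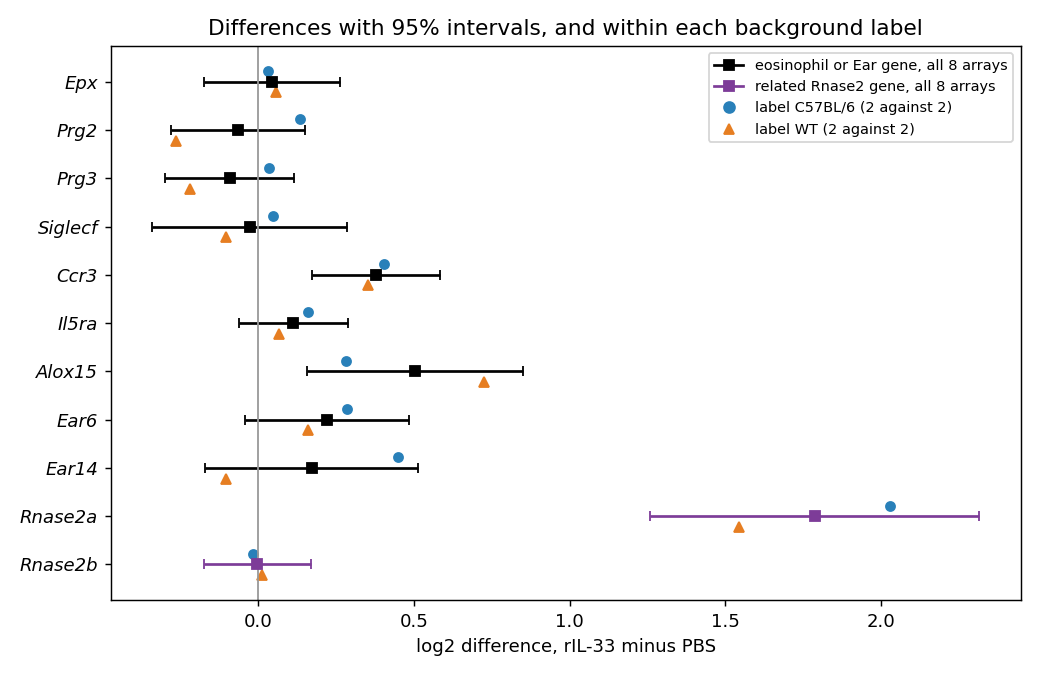
Log2 difference, rIL-33 minus PBS (horizontal axis), of the 9 eosinophil and Ear genes (black squares) and of Rnase2a and Rnase2b (purple squares), with 95% intervals from limma, and the differences within the label C57BL/6 (blue circles) and the label WT (orange triangles), 2 arrays against 2. The intervals of Ccr3, Alox15 and Rnase2a lie above 0, and Ear14, Prg2, Prg3, Siglecf and Rnase2b have opposite signs in the 2 labels.

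The growth factor genes of eosinophils and their receptor chains differed little. None of the 8, which include Il5ra, passed the threshold. With rIL-33 5 were higher, against 45.7% of all genes, and 3 lower, and the median log2 difference was 0.02. Il5, the growth factor itself, was dim and differed by 0.22 (SE 0.11, limma adjusted p = 0.655), with 0.01 among arrays labelled C57BL/6 and 0.43 among those labelled WT. Csf2rb2, a beta chain of the interleukin 3 receptor, differed by 0.19 (SE 0.14, limma adjusted p = 0.805).

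Of 9 chemoattractant genes none passed the threshold, and 3 were higher and 6 lower (median -0.17). The largest differences were those of Ccl5 (-0.91, SE 0.26, limma adjusted p = 0.609) and Ccl3 (-0.73, SE 0.31, limma adjusted p = 0.627), chemokines that act on many leukocytes. The 2 eotaxin genes encode ligands of CCR3, though not its only ones, and are named here for that role after their values were seen. Both had positive differences over all 8 arrays, but not evenly in both labels, in a list where 6 of 9 genes were lower. Ccl11 (eotaxin-1) stood at 782, 509, 712 and 701 with rIL-33, against 600, 626, 465 and 522 with PBS, a difference of 0.28 (SE 0.14, limma adjusted p = 0.665), with 0.04 among arrays labelled C57BL/6 and 0.52 among those labelled WT. For Ccl11 rIL-33 array 2 lay among the PBS arrays, and for Ccl24 (eotaxin-2) the groups overlapped, with a difference of 0.12 (SE 0.09, limma adjusted p = 0.818), made up of 0.25 for the label C57BL/6 and -0.0087 for the label WT.

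Other surface receptors of eosinophils, which many myeloid cells share, were mostly lower. Of 18 with a value, 15 were lower and 3 higher, 0 past the threshold, with a median of -0.15. Over all genes, 10728 of 19752 were lower. Adgre4, named after its values were seen, was the 1 gene of the list whose groups did not overlap. All its rIL-33 arrays lay below its PBS arrays, as in 1.93% of all genes, with a difference of -0.34 (SE 0.08, limma adjusted p = 0.609). Adgre1 (F4/80), found on macrophages and mouse eosinophils, differed by -0.44 (SE 0.15, limma adjusted p = 0.611), and Fcer1g, the common gamma chain of Fc receptors, by -0.39 (SE 0.18, limma adjusted p = 0.646).

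Transcription factors of the lineage differed by a median of -0.05, with 5 of 13 higher, 8 lower and 0 past the threshold. The myeloid factor gene Spi1 (PU.1) differed by -0.30 (SE 0.13, limma adjusted p = 0.640) and Id2 by -0.15 (SE 0.11, limma adjusted p = 0.800). Gata2, which acts in eosinophil, basophil and mast cell precursors, was the 1 gene of the list whose groups did not overlap. It was higher with rIL-33, by 0.11 (SE 0.07, limma adjusted p = 0.736), and 1.96% of all genes were higher without overlap. Gata2 and Gata1 were named after their values were seen. Gata1 had 124, 132, 145 and 153 with rIL-33, against 119, 138, 172 and 147 with PBS, and its groups overlapped.

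The eicosanoid enzymes beside Alox15 did not share its direction: of 10 with a value, 2 were higher and 8 lower, with a median of -0.08 and 0 past the threshold. Hpgds, the haematopoietic prostaglandin D synthase, stood at 428, 600, 391.7 and 570 with rIL-33, against 702, 669, 668 and 799 with PBS. All rIL-33 arrays lay below all PBS arrays, with a difference of -0.53 (SE 0.14, limma adjusted p = 0.609). Pla2g4a, the cytosolic phospholipase that frees arachidonic acid, differed by -0.30 (SE 0.14, limma adjusted p = 0.648).

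Type 2 cytokine and receptor genes, which again include Il5, split evenly, 5 higher and 6 lower of 11 with a value, 0 past the threshold, with a median of -0.01. Il13ra1, a receptor chain for interleukin 13, differed by -0.42 (SE 0.17, limma adjusted p = 0.618). Il17rb, part of the interleukin 25 receptor, differed by 0.35 (SE 0.10, limma adjusted p = 0.609). It was the 1 gene of this list whose groups did not overlap, with every rIL-33 array above every PBS array. Among the 14 genes of the pancreatic ribonuclease list outside the Ear symbols, which includes the inhibitor Rnh1, Rnase2a was the 1 gene whose groups did not overlap. Over all genes, 1.96% were higher without overlap. The remaining 13 ranged from -0.12 (Ang2, SE 0.09, limma adjusted p = 0.782) to 0.11, and the median of all 14 was -0.05.

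**Figure D4:**
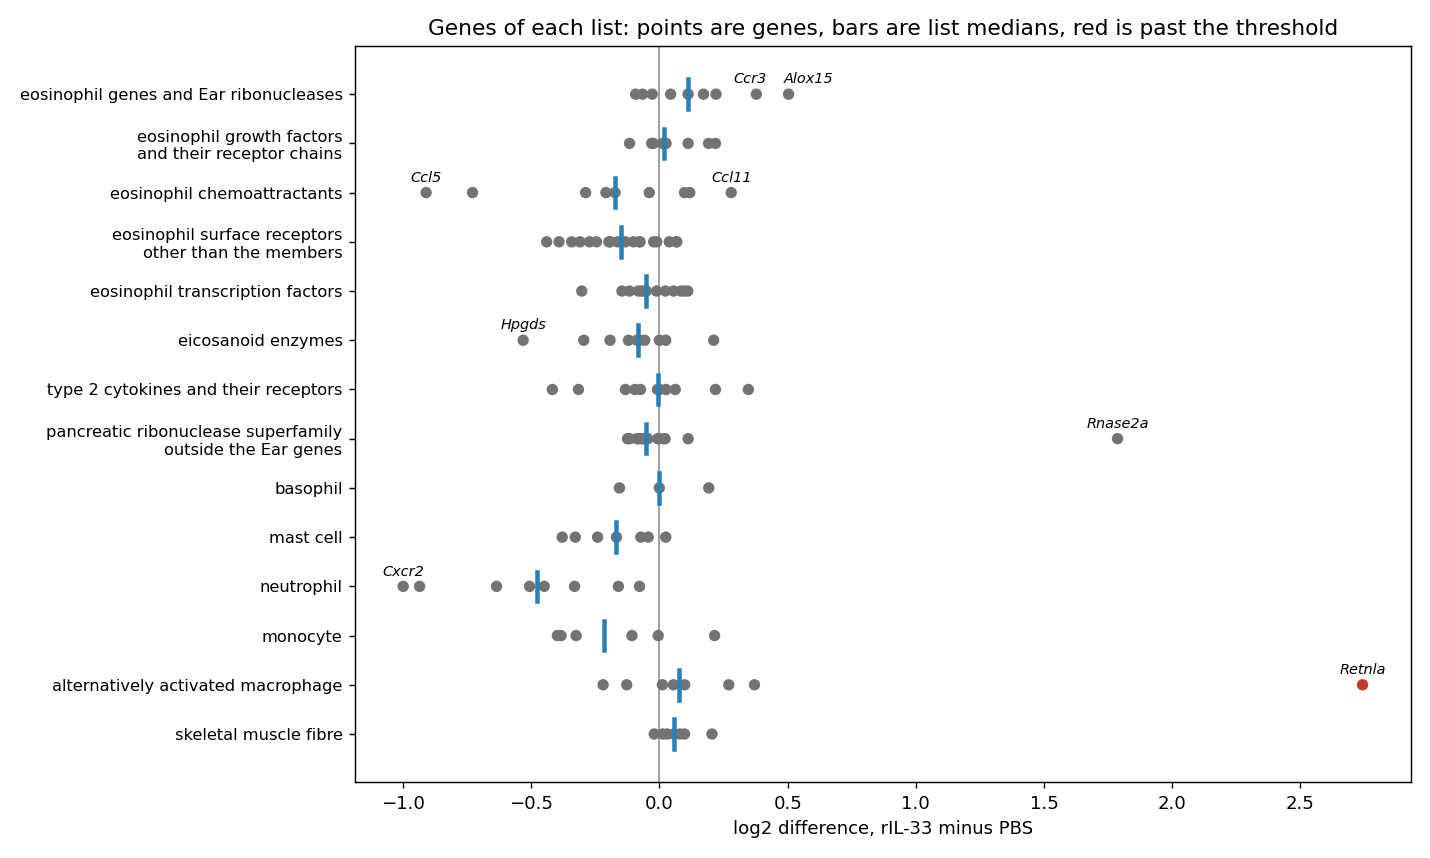
Log2 difference, rIL-33 minus PBS (horizontal axis), of every gene with a value in each list (points) with the list's median (blue bars), red where the limma adjusted p is under 0.05. Retnla, at 2.74, is the 1 red point, and Rnase2a, at 1.79, lies apart from the other ribonucleases.

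Markers of other cells that can hold these transcripts were measured alongside. Of 8 alternatively activated macrophage genes, 6 were higher, against 45.7% of all genes. Retnla was past the threshold (2.74, SE 0.24, limma adjusted p = 0.00473) and Mgl2 stood at 0.37 (SE 0.13, limma adjusted p = 0.611). Cd163 (0.27), Pdcd1lg2 (0.10), Chil3 (0.05) and Clec10a (0.01) were also higher, and Arg1 (-0.13) and Mrc1 (-0.22) were lower. Retnla was higher by 2.38 for the label C57BL/6, where its limma adjusted p of 0.104 missed the threshold, and by 3.10 for the label WT. For Mgl2 these values were 0.07 and 0.67, so its difference came largely from the WT arrays. The summed intensity of the 8 genes was 3160 to 3900 with rIL-33, against 1933 to 2803 with PBS, and without Retnla 1803 to 2201 with rIL-33, against 1746 to 2602 with PBS. Monocyte genes were lower in 5 of 6 (summed intensity 2977 to 3486 with rIL-33, against 3216 to 3745 with PBS), Ace by -0.40 and Cx3cr1 by -0.38, with limma adjusted p of 0.609 for both. Cx3cr1 was the 1 gene of the monocyte list whose groups did not overlap, lower with rIL-33 as in 1.93% of all genes.

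Basophil genes, 3 in all, were dim and differed by -0.16 (Mcpt8) to 0.19 (Cd200r3), with sums of 167 to 202 with rIL-33, against 159 to 225 with PBS. Mast cell genes were lower in 6 of 7, with sums of 1185 to 1237 with rIL-33, against 1085 to 1701 with PBS. Cpa3 differed by -0.38 and Mcpt4 by -0.33, both with values near 0 (-0.00 and -0.05) within the WT-labelled arrays. Neutrophil genes were lower in 8 of 8, beside 10728 of all 19752 genes. Their sums were 726 to 816 with rIL-33, against 691 to 2366 with PBS, where Cxcr2 (-0.9996) was high on PBS array 4 and Ngp (-0.94) on PBS arrays 3 and 4. Among arrays labelled C57BL/6, S100a9 (0.45), Ly6g (0.28), Ngp (0.24), Camp (0.11) and S100a8 (0.10) were higher with rIL-33. Mmp9 (-0.15), Cxcr2 (-0.09) and Ltf (-0.08) were lower there. All intensities lie above 0 by their scale, and whether each marker of these lists lay above background was not tested. Of these lists, 1 gene, Retnla, passed the threshold, and their part in the values of Alox15 and Rnase2a was not tested.

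By the shape of their values over the 8 arrays, the genes closest to Ccr3 were 1700006J14Rik, Ppargc1b and Ttc14, whose centred log2 values differed from those of Ccr3 by a root mean square of 0.09, 0.11 and 0.12. Closest to Alox15 were Stxbp4, Gbp2b and Hlf, at 0.12, 0.13 and 0.14. Closest to Ear14 were Sstr1 (a somatostatin receptor), Olfr1495 (an olfactory receptor) and Vmn2r54 (a vomeronasal receptor), at 0.06, 0.07 and 0.08. Each comparison covered genes whose SD over the arrays was at least 0.5 times that of the gene in question, and none of these 9 passed the threshold for treatment (limma adjusted p between 0.609 and 0.965).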

How the data were processed

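Total RNA of whole muscle, extracted with TriZol and labelled with biotin, had been hybridised to Affymetrix Mouse Gene 1.0 ST arrays, 1 sample per array. The authors deposited RMA intensities per probe set, and RMA and Affymetrix Power Tools are the software listed per the submitters' processing notes, without version numbers. The values were on a linear scale, and log2 was taken. Of 24922 probe sets, 21425 had exactly 1 symbol in the platform annotation, 1399 several, and 2098 were not listed there; each of the 19752 genes was represented by its probe set of highest mean.

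The rIL-33 and PBS arrays, 8 in all, entered 1 model without a block (limma 3.58.1 under R 4.3.3, lmFit then eBayes), with Benjamini-Hochberg adjustment over all 19752 genes and a threshold of 0.05. No dim filter was used, because one at the 25th percentile removes 6 of the 9 genes. The fit was checked on simulated data with independent normal values and no difference between labels, unlike these arrays. There 21 of 50 changes of 0.5 and 41 of 50 changes of 1 on the log2 scale passed the threshold. So did 9 genes that had not been changed. Whether the arrays represent separate mice is not stated, and the p-values therefore measure only the spread between these samples, which may be technical. The number of arrays limits the precision.

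The genes and lists were chosen with earlier results of these data known. Named were all 9 genes, the genes closest to Ccr3, Alox15 and the most variable Ear gene, and from each list the genes past the threshold or, with fewer than 2 of these, the 2 of largest difference. Alternatives were quantile and cyclic loess normalization, dim filters at the 25th and 50th percentile, eBayes with trend and robust, the replicate number or label as a block, each label alone, mean of probe sets, all probe sets, a threshold of 0.1 and each array left out. Alignments used Biopython 1.88 and figures matplotlib 3.10.9.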

Additional observations from a re-analysis of the deposited data

Results flagged for a closer look

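Ear6 on rIL-33 array 4 (intensity 98.6, the other rIL-33 arrays between 80.8 and 83.0) stood apart from its group, with a gap to the next array of 0.87 of the group's whole range, above Dixon's 95% critical value for 4 samples. Chance flags about 1 in 20 groups, and 22 groups were looked at (11 genes, 2 treatments).

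The treatment difference of Ear14 differed between the genetic background labels at an unadjusted limma p of 0.00907 for the treatment by label term, with 0.45 within C57BL/6 and -0.11 within WT. That of Prg2 did so at an unadjusted limma p of 0.0273, with 0.13 within C57BL/6 and -0.27 within WT. Over all genes 3.38% had an unadjusted p under 0.05 for this term, and both adjusted p were 0.999. Each within-label value rests on 2 arrays against 2.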

How the results depend on the processing

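The number of genes past the threshold was 1 as reported, 0 with the replicate block, 6 with all probe sets, 2 among arrays labelled C57BL/6, 7 among those labelled WT, and 1 to 2 with an array left out. None of the 9 eosinophil and Ear genes passed in any alternative that kept them, and the 50th percentile filter kept none. Those without overlap and higher with rIL-33 were 2 as reported, 3 with quantile or cyclic loess normalization (Il5ra added; 2.22% and 2.1% of all genes), 6 among arrays labelled C57BL/6 (2 against 2; 14.8%), 2 among those labelled WT (22%), where Prg2 and Prg3 were lower without overlap, and 2 to 3 with an array left out (2.47% to 4.97%). Replicate numbers did not pair the samples (same-number correlations of 0.44, -0.11, 0.47 and 0.43), so the block is given only here, and Retnla had a limma adjusted p of 0.0826 with it. Among arrays labelled C57BL/6 Retnla missed the threshold too (limma adjusted p = 0.104). Rnase2a passed without rIL-33 replicate 1 (1.53) and within the WT-labelled arrays (1.55), and both dim filters removed it.

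Signs turned only in values near 0 or within 1 label. Within the C57BL/6-labelled arrays Ngp was at 0.24, Prg2 at 0.13, Siglecf at 0.0478, Prg3 at 0.0344 and Myh4 at -0.0024. Within the WT-labelled arrays Ear14 was at -0.11, Rnase2b at 0.0125 and Ccl24 at -0.0087, and Rnase2b was at 0.0106 with cyclic loess. With an array left out, Siglecf ranged from -0.152 to 0.0678, Rnase2b from -0.0502 to 0.0273, Prg2 from -0.128 to 0.00509 and Gata1 from -0.138 to 0.0381. The cause of these turns was not tested. Dim signal limits 6 of the 9 genes.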

Other observations

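Retnla had the smallest and Rnase2a the second smallest p of all genes, and their values can be set side by side array by array. Retnla stood at 2097, 1068, 1707 and 1640 on rIL-33 arrays 1 to 4, against 219, 377, 188 and 201 on PBS arrays 1 to 4. Both genes were highest on rIL-33 array 1 and lowest, within that group, on rIL-33 array 2. Within the PBS group Retnla was highest on array 2, whereas Rnase2a was highest on array 3.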
